A study of Rattus norvegicus with 8 samples.

Results

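The genes described here are 6 members of the neuropeptide system that drives gonadotropin release: Gnrh1, Kiss1, Kiss1r, Tac3, Tacr3 and Npvf. They were taken from the non-control spots of the arrays by gene name, with every probe of a gene used, and stand among 14603 genes that could be tested. Of the 6, 5 carry their current symbol in the array files. Tac3 is listed there as Tac2 and was matched through its RefSeq accession. The samples were whole hypothalami of Sprague Dawley rats aged 3 to 4 months, housed singly, from 4 females in estrus (F1 to F4) and 4 males (M1 to M4), with no treatment or genetic change given for either sex. Each of the 4 arrays, all on 1 slide, held 1 female and 1 male in opposite dyes. On arrays 1 and 3 the female sample was labelled with Cy3, and on arrays 2 and 4 with Cy5. All females were in estrus, so sex and stage of the cycle cannot be told apart. In tissue RNA, fewer cells of a type and less RNA per cell cannot be told apart either.

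Gonadotropin-releasing hormone, encoded by Gnrh1, is made by scattered neurons of the preoptic area and is secreted in pulses into the pituitary's portal blood. Kisspeptin, the product of Kiss1, excites these neurons through its receptor Kiss1r. Kisspeptin neurons of the arcuate nucleus also make neurokinin B, encoded by Tac3, and dynorphin, and act on each other through the neurokinin B receptor Tacr3 to set the pulse rhythm. A separate group of kisspeptin neurons in the anterior periventricular region of rodents takes part in the preovulatory surge. In rodents estradiol lowers Kiss1 and Tac3 transcripts in the arcuate nucleus and raises Kiss1 in the anterior group. Npvf encodes RFamide-related peptides, made in the dorsomedial hypothalamus, which can restrain the reproductive axis.

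Each gene was read by 1 probe of 60 bases, and these sequences are shown because each value below rests on 1 of them. They are printed 5′ to 3′ as the array files give them, whole for Kiss1, Kiss1r and Npvf, and as 30 of the 60 bases for the others. Capitals mark the polyadenylation hexamer AATAAA, found in the Tac3 probe.
Gnrh1 (bases 1 to 30): tgttacagctctgtaattgtgtgggcttcc
Kiss1: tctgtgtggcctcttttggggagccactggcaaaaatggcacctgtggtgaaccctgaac
Kiss1r: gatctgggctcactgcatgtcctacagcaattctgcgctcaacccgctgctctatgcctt
Tac3 (bases 31 to 60): ctcctcaacAATAAAgggtttttacaatgg
Tacr3 (bases 1 to 30): ccaagggaaacatgacctacataaaacaga
Npvf: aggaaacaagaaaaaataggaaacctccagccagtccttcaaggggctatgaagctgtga
On the rn4 build the array files place the probes at chr15:47307423-47307482 for Gnrh1 (forward strand), chr13:46244823-46244882 for Kiss1 (forward), chr7:11298057-11298116 for Kiss1r (reverse), chr7:67723606-67723665 for Tac3 (forward), chr2:232404773-232404832 for Tacr3 (forward) and chr4:78886521-78886580 for Npvf (reverse). Per the array files each probe belongs to a RefSeq transcript of its gene, so all 6 are exonic, starting at transcript base 372 for Gnrh1, 37 for Kiss1, 911 for Kiss1r, 654 for Tac3, 1967 for Tacr3 and 552 for Npvf. Whether these bases are coding or UTR was not determined here. Their GC content ran from 36.7% for Tac3 to 55% for Kiss1 and Kiss1r, against a median of 45% over all probes. No run of 20 bases in the 6 probes was found in another probe (0 in each case), and AATAAA occurred in 8.39% of all probes. The Gnrh1 probe was printed on 10 spots of each array and the others on 1.

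The start regions of the kisspeptin ligand and receptor genes are shown because this pair is an entry point for sex steroid signals to the axis. They are the 250 bases before the gene start in RefSeq (GRCr8), Kiss1 at chr13:47326909-47327158 on the forward strand and Kiss1r at chr7:10439425-10439674 on the reverse strand. Capitals mark GGTCA (half-site of the estrogen receptor), TGACG (half-site of the cyclic AMP response element) and GGCGGG (GC box), each searched on both strands.
Kiss1: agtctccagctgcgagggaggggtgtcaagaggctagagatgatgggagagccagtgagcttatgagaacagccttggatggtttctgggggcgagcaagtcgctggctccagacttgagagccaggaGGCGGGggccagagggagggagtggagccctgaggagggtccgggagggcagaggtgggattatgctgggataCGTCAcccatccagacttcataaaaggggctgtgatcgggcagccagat
Kiss1r: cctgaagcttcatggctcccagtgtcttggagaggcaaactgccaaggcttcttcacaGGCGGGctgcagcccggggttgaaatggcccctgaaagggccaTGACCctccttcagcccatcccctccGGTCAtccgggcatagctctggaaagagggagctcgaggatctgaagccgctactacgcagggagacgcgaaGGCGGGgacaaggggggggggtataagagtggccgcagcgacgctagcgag
Kiss1 held 1 TGACG and 1 GC box. Kiss1r held 2 copies of GGTCA and 2 GC boxes. GGTCA is in 35.4% of 33469 promoters of this length, TGACG in 18.2% and GGCGGG in 29.4%. The full palindrome of the estrogen response element, in 0.0239% of promoters, was in none of the 4 member promoters in the table (0 copies in Kiss1, Kiss1r, Tacr3 and Npvf). Tacr3 held 2 copies of TGACG, and Tacr3 and Npvf each held 1 TATAAA, a motif in 12.9% of promoters. A match describes letters only. Gnrh1 and Tac3 were not analysed here for promoters.

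Across the 4 arrays, spots had a median of 502 to 530 intensity units over local background in Cy3 and of 148 to 272 in Cy5. Saturated spots numbered 0. The Cy5 median was 272 and 229 on arrays 1 and 3, which held the Cy5 males. It was 148 and 162 on arrays 2 and 4, which held the Cy5 females. Raw Cy5 orders of the sexes given below therefore carry this difference between arrays. Markers of the hypothalamus such as Avp, Oxt, Pmch, Hcrt, Pomc and Agrp were well above background in all 8 samples. Male 2 stood apart from the others. Its level was compared on a dye-centred scale, the normalized log2 level minus the mean of the 4 samples with the same dye. On this scale male 2 was the lowest of the 8 samples for 6 of 6 paraventricular and supraoptic markers, 6 of 7 arcuate markers, 3 of 3 ventromedial and dorsomedial markers, 2 of 2 lateral hypothalamic markers and 7 of 7 markers of meninges and vessels. It was the highest for 9 of 13 cortical, hippocampal and striatal markers. Its summed normalized signal over the paraventricular and supraoptic list was 6830, against 93630 to 111700 in other males and 107600 to 133300 in females. Single values in male 2 were -3.39 for Avp (vasopressin) and -3.24 for Pmch (melanin-concentrating hormone), but 0.22 for Npy (neuropeptide Y). The cortical transcription factor gene Neurod6 was at 4.5 in male 2 and 2.61 in female 2, both of array 2, and at -2.15 to -0.29 in the other 6. Of the preoptic and septal markers, male 2 was lowest for 1 of 5 and highest for 3 of 5. Over all 14488 genes with a level in every sample it was lowest for 28.5% and highest for 24.9%. Male 4, the other Cy3 male, differed in the choroid plexus and ependyma list. Its summed signal there was 96620, against 6050 to 16790 in the other samples, and its dye-centred level of Ttr (transthyretin) was 3.12.

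**Figure D1:**
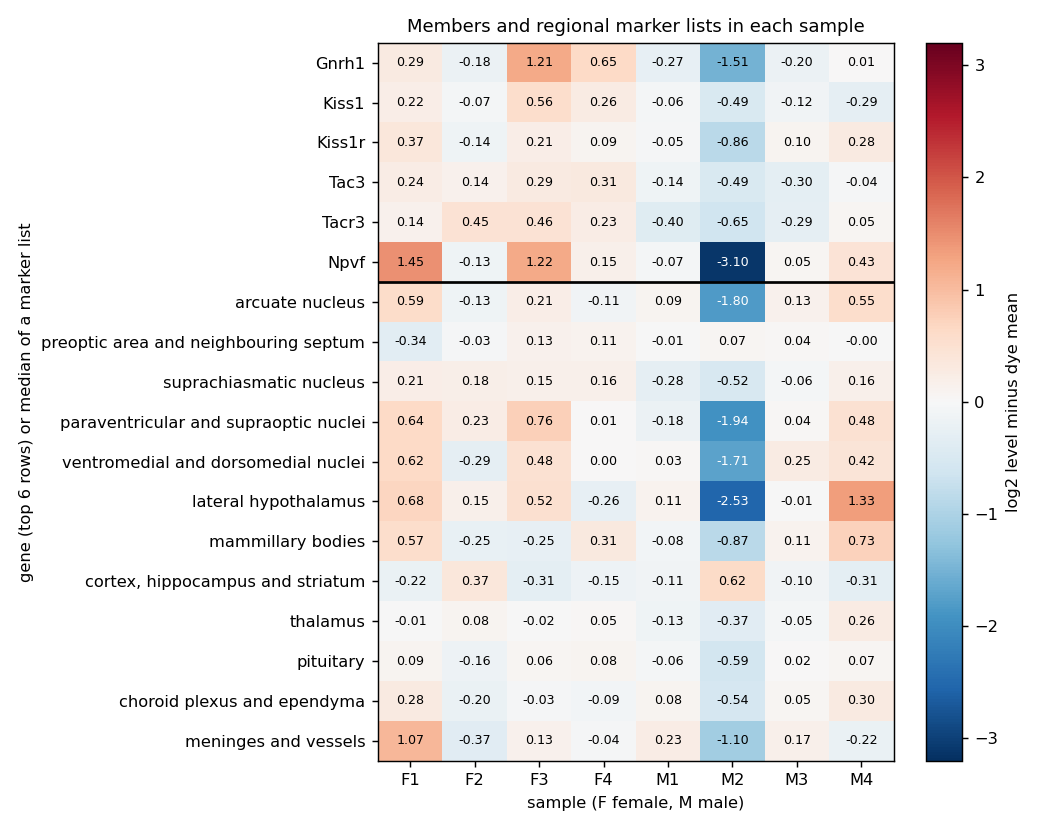
Dye-centred log2 level of the 6 genes (top rows) and the median level of each regional marker list (lower rows) in each female (F) and male (M). Male 2 is at the bottom of all 6 gene rows, from -3.10 for Npvf to -0.49 for Kiss1 and Tac3, while its cortical list is at 0.62.

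All 6 genes were lowest in male 2, so the fitted ratio of each is also given without array 2, which held this animal and female 2. The same holds for the counts and the pathway genes named below that leaving out array 2 moved by over 1.5 times. Other pathway genes that moved as much are not named. Male 2 is 1 of the 4 samples in the Cy3 mean, so its low values also raise the dye-centred levels of females 1 and 3 and male 4. Its part in the sex differences beyond these values was not tested.

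The comparison asks how the sexes differ in each gene, from the within-array log2 ratio of female over male, fitted as the sum of a sex effect and a dye effect of each gene. All 6 fitted ratios were above 0, against 56.2% of all genes tested. The direction was shared by hypothalamic markers outside the 6 genes. The tested paraventricular and supraoptic markers were all above 0, from 0.03 for Otp to 1.30 for Avp. Arcuate markers ran from -0.04 for Npy to 0.93 for Cartpt, and preoptic and septal markers from -0.33 for Moxd1 to 0.60 for Lhx8. Of the 6 members, the largest ratios were Npvf at 1.34 ± 0.56 (SE, n = 4 arrays) and Gnrh1 at 0.99 ± 0.20. The smallest was Kiss1r at 0.27 ± 0.18. None of the 6 passed the threshold of 0.05 on the adjusted p (limma, Benjamini-Hochberg over 21995 probes), where adjusted p was 0.591 for Kiss1r and 0.555 for the other 5. Over the whole array 0% of probes passed this threshold (0 of 21995), with 1870 at an unadjusted p under 0.05. At that unadjusted threshold 4 of the 6 genes, Gnrh1, Kiss1, Tac3 and Tacr3, lay higher in females, against 4.98% of all probes, and 0 of 6 lay higher in males, against 3.52%. The ratio was above 0 on 4 of 4 arrays for 4 genes, Gnrh1, Kiss1, Tacr3 and Npvf, against 5.24% of all probes. In the authors' deposited table Kiss1 and Tacr3 were below 0 on array 1, at -0.016 and -0.21, which left Gnrh1 and Npvf above 0 on 4 of 4 arrays. Dye-centred levels of all 4 females lay above those of all 4 males for 2 genes, Tac3 and Tacr3, against 3.94% of probes.

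Without array 2, 5 of the 6 genes had an unadjusted p under 0.05 and lay higher in females, all but Kiss1r, against 4.17% of probes, and 0 of 6 lay higher in males, against 3.82% (limma). Gnrh1, Kiss1, Tacr3 and Npvf were above 0 on the other 3 arrays, against 8.22% of probes. A comparison of normalized levels within each dye, without male 2, was added after seeing the data. Both females lay above the remaining males in Cy3 and in Cy5 for 3 genes, Gnrh1, Tac3 and Tacr3, against 10.5% of probes. In Cy5 the lowest female minus the highest male was only 0.02 for Gnrh1, and it was -0.01 for Kiss1.

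**Figure D2:**
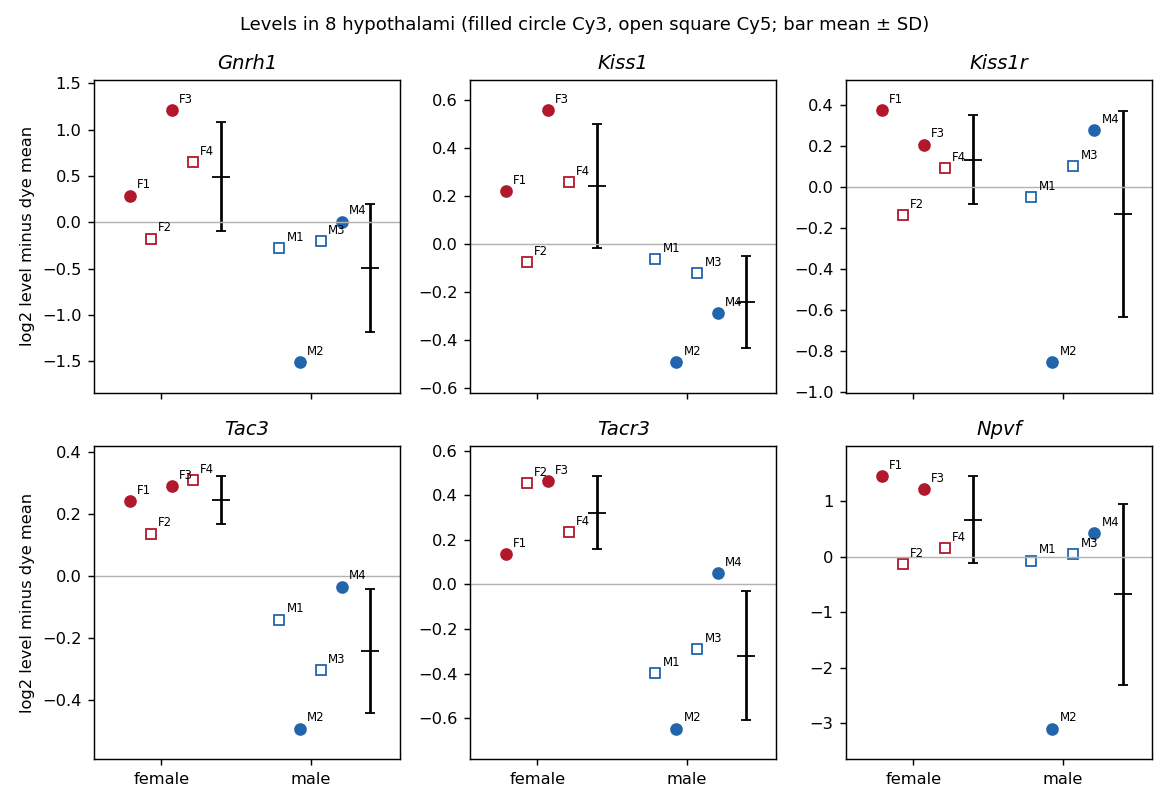
Dye-centred log2 level of each gene in the 4 females (red) and 4 males (blue), with filled circles for Cy3, open squares for Cy5 and black bars for mean ± SD (n = 4). The sexes are separate in the panels of Tac3 and Tacr3 and overlap in the other 4, and male 2 is the lowest point in every panel.

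Gnrh1, the releasing hormone itself, had raw signals above background of 1205 and 2821 in the Cy3-labelled females 1 and 3, and of 316.1 and 599.4 in the Cy5-labelled females 2 and 4. In males the signals were 464.7 and 421.6 with Cy5 (males 1 and 3) and 227 and 1096 with Cy3 (males 2 and 4). Signals of different dyes cannot be set against each other, and within Cy3 both females lay above both males, by a narrow margin over male 4. Within Cy5 the raw signals of the sexes overlapped, female 2 being the lowest, and the arrays of the Cy5 females had lower Cy5 signals. After normalization the log2 ratio was 0.67, 1.23, 1.52 and 0.53 on arrays 1 to 4, a fitted 1.98-fold difference with a 95% interval of the log2 ratio from 0.45 to 1.52 (limma, unadjusted p = 0.0064, rank 142 of 21995). On the dye-centred scale females averaged 0.49 ± 0.59 (SD, n = 4) and ran from -0.18 to 1.21, and males averaged -0.49 ± 0.69 (n = 4) and ran from -1.51 to 0.0074. Female 3 was the highest of all and female 2 lay among the males. Between animals of the same dye, females exceeded males by 0.47 in Cy5 and 1.5 in Cy3, and by 0.74 in Cy3 over male 4 alone.

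The 10 spots of Gnrh1 carry the same probe, so their spread within an array is technical. On array 1 their log2 ratios averaged 0.67 ± 0.45 (SD, 10 spots) and ran from -0.12 to 1.14. The ratio followed the row of the spot, with r of -0.98, 0.91, -0.96 and 0.95 on arrays 1 to 4, across spots that share an array and so given as a description. The sign turned with the dye orientation. On array 1 the Cy3 signal (female 1) varied from 1034 to 1467 over the spots and the Cy5 signal (male 1) from 260.6 to 803. The spots of all probes together sloped the same way: in the top of 10 bands of rows the median log2 ratio of all spots was 0.63 on array 1 and -0.44 on array 4, and in the bottom band -0.13 and 0.11. A smooth surface over row and column, added after seeing the data, gave Gnrh1 means of 0.38, 1.33, 1.29 and 0.74 with spot SDs of 0.16 to 0.29. The scanner software's own correction gave 0.30, 2.33, 1.32 and 0.93 with SDs of 0.06 to 0.15. The fitted ratio was 0.93 with the surface. For the 1302 probes on 10 spots the median SD over spots was 0.23 to 0.30 on the 4 arrays, 0.11 to 0.14 with the surface and 0.07 to 0.08 with the scanner's correction.

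**Figure D3:**
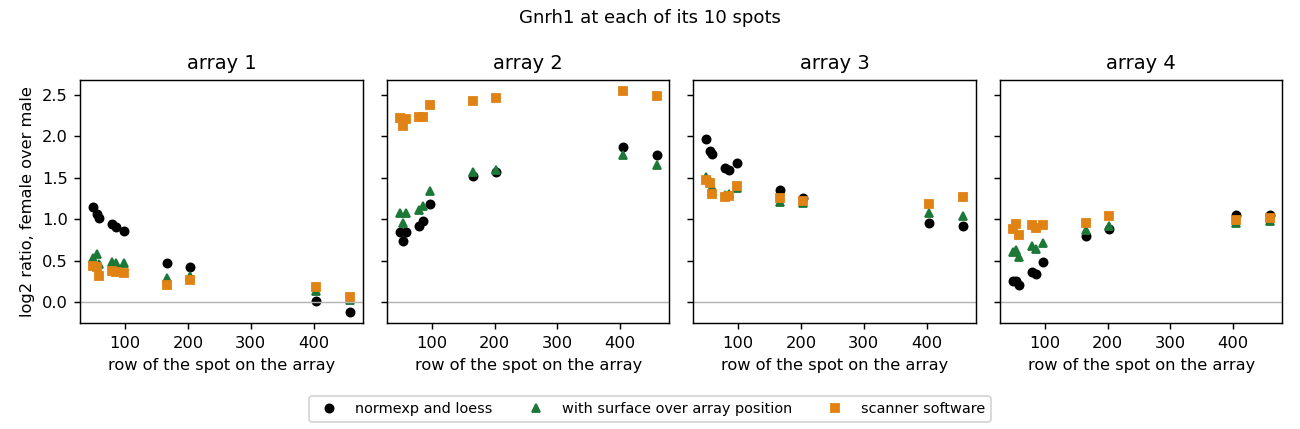
The log2 ratio of female over male at each Gnrh1 spot against its row, on each of the 4 arrays, after intensity loess (black), with a surface over array position (green) and from the scanner software (orange). The black points slope down on arrays 1 and 3 and up on arrays 2 and 4, and the orange points slope less; their array 2 mean, 2.33, lies above the black mean of 1.23.

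Kiss1, the kisspeptin gene, had signals of 139.1 and 216.3 in the Cy3 females 1 and 3 and 62.19 and 74.68 in the Cy5 females 2 and 4. In males they were 76.42 and 58.82 in Cy5 (males 1 and 3) and 0.3548 and 74.02 in Cy3 (males 2 and 4). Both Cy3 females lay above both Cy3 males, and the Cy5 samples overlapped. The spot of male 2 had a mean signal of 37.35 over a local background of 37, although the scanner software marked it as well above background, and the authors' deposited table holds no value there. The array log2 ratios were 0.13, 0.58, 0.52 and 0.71, fitted at 0.48 ± 0.09 or 1.40-fold, with a 95% interval from 0.23 to 0.74 (limma, unadjusted p = 0.00561). Females of the same dye exceeded males by 0.18 in Cy5, where the lowest female minus the highest male was -0.01, and by 0.68 in Cy3 over male 4 alone. The ratio on array 2 depended on how background was treated: it was 0.58 after normexp, which adds an offset, and 3.51 from the scanner software. The fitted value was 1.54 with the scanner's ratios, 0.96 without background correction and 0.86 from the authors' deposited table, where array 2 gives no value. Dye-centred levels were 0.24 ± 0.26 in females and -0.24 ± 0.19 in males (SD, n = 4 each), and female 2, at -0.07, lay level with male 1 at -0.06.

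Kiss1r, the kisspeptin receptor carried by GnRH neurons, had the smallest difference of the 6. Signals were 1099 and 1103 in Cy3 females and 368.7 and 436.5 in Cy5 females, in the same order of animals. Males had 651.7 and 593.4 in Cy5 and 399.2 (male 2) and 1107 (male 4) in Cy3. In raw signal male 4 matched the Cy3 females. Both Cy5 males lay above both Cy5 females, whose arrays had lower Cy5 signals. The array log2 ratios were 0.053, 1.09, -0.26 and 0.18. The fitted 0.27 ± 0.18 had a 95% interval from -0.21 to 0.74 (limma, unadjusted p = 0.2). Females minus males were -0.05 within Cy5 and 0.01 within Cy3 over male 4 alone. Without array 2 the fit gave 0.04. In the authors' deposited table Kiss1r was above 0 on 1 of 4 arrays, at -0.09, 1.42, -0.23 and -0.02 on arrays 1 to 4. Dye-centred levels were 0.13 ± 0.22 in females and -0.13 ± 0.50 in males (SD, n = 4 each), and apart from male 2 at -0.86 the males lay at -0.05 to 0.28, inside the range of the females.

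Tac3, which encodes neurokinin B, had signals of 9402 and 11510 in Cy3 females and 5002 and 5404 in Cy5 females. In males they were 6173 and 4532 in Cy5 (males 1 and 3) and 6841 and 8579 in Cy3 (males 2 and 4). The Cy3 females exceeded the Cy3 males, while the Cy5 raw signals overlapped, with a female to male ratio of 0.97. After normalization all females lay above all males, at 0.14 to 0.31 against -0.49 to -0.035, with an SD of 0.08 in females and 0.20 in males (n = 4 each). The array log2 ratios were -0.065, 1.08, 0.15 and 0.79, higher on the arrays where the female carried Cy5. The fit put the sex difference at 0.49 ± 0.09, or 1.40-fold, with a 95% interval from 0.25 to 0.72 (limma, unadjusted p = 0.00395, rank 72 of 21995), and the dye term at 0.45 (limma, unadjusted p = 0.00548). Same-dye differences were 0.45 in Cy5, 0.53 in Cy3 and 0.30 in Cy3 over male 4 alone.

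Tacr3, the neurokinin B receptor, had signals of 552.8 and 809.1 in Cy3 females and 424.9 and 333.3 in Cy5 females. Males had 331 and 295.3 in Cy5 and 241.7 (male 2) and 560 (male 4) in Cy3. Both Cy5 females lay above both Cy5 males, and male 4 lay between the Cy3 females. Dye-centred levels were 0.14 to 0.46 in females and -0.65 to 0.05 in males, with male 4 nearest to the females. The array log2 ratios were 0.039, 1.6, 0.26 and 0.68, fitted at 0.64 ± 0.17 or 1.56-fold, with a 95% interval from 0.17 to 1.11 (limma, unadjusted p = 0.0186). The dye term was 0.49 (limma, unadjusted p = 0.0431), with the larger ratios again where the female carried Cy5. Same-dye differences were 0.69 in Cy5 and 0.25 in Cy3 over male 4 alone. Without array 2 the fitted value was 0.41, more than 1.5 times smaller.

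Npvf, the RFamide-related peptide gene, had signals of 7319 and 7283 in Cy3 females, 1880 and 2199 in Cy5 females, and 3005 and 2671 in Cy5 males. The Cy3 males had 3912 (male 4) and 126.7 (male 2). Male 2 was far below every other sample. In raw signal the Cy5 males lay above the Cy5 females, whose arrays had lower Cy5 signals. The array log2 ratios were 0.59, 3.90, 0.23 and 0.65, so array 2 gave the largest. The fitted 1.34 ± 0.56, or 2.54-fold, had a 95% interval from -0.19 to 2.88 (limma, unadjusted p = 0.0721). Without array 2 it was 0.53. Normalized levels within Cy5 differed by 0.02, and Cy3 females exceeded male 4 by 0.90. Dye-centred levels were 0.67 ± 0.78 in females and -0.67 ± 1.63 in males (SD, n = 4 each).

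The 5 genes on 1 spot each have no spread over spots, so the slope across the array was read from all spots of the same band of rows. Kiss1, at row 452 of 532, lay in a band whose median log2 ratio was -0.12, 0.07, -0.14 and 0.11 on arrays 1 to 4, and Tac3 and Kiss1r, at rows 403 and 383, shared a band at -0.09, 0.04, -0.12 and 0.11. Npvf, at row 156, lay in a band at 0.23, -0.04, 0.15 and -0.16, and Tacr3, at row 303, in one at -0.03 to 0.04. The offsets turn with the dye orientation, and the surface left the fitted ratios at 0.47 for Kiss1, 0.29 for Kiss1r, 0.50 for Tac3, 0.63 for Tacr3 and 1.30 for Npvf. With the surface, the Tac3 ratio on array 1 moved from -0.065 to 0.066, so that it lay above 0 on all 4 arrays, and the other arrays gave 0.98, 0.27 and 0.70. With the surface and without array 2 the values were 0.79 for Gnrh1, 0.50 for Kiss1, 0.07 for Kiss1r, 0.43 for Tac3, 0.39 for Tacr3 and 0.50 for Npvf, and none passed the adjusted threshold (lowest adjusted p 0.589, limma). The fit without a dye term left each ratio as it was and widened the SE of Tac3 from 0.09 to 0.22 and that of Tacr3 from 0.17 to 0.28.

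**Figure D4:**
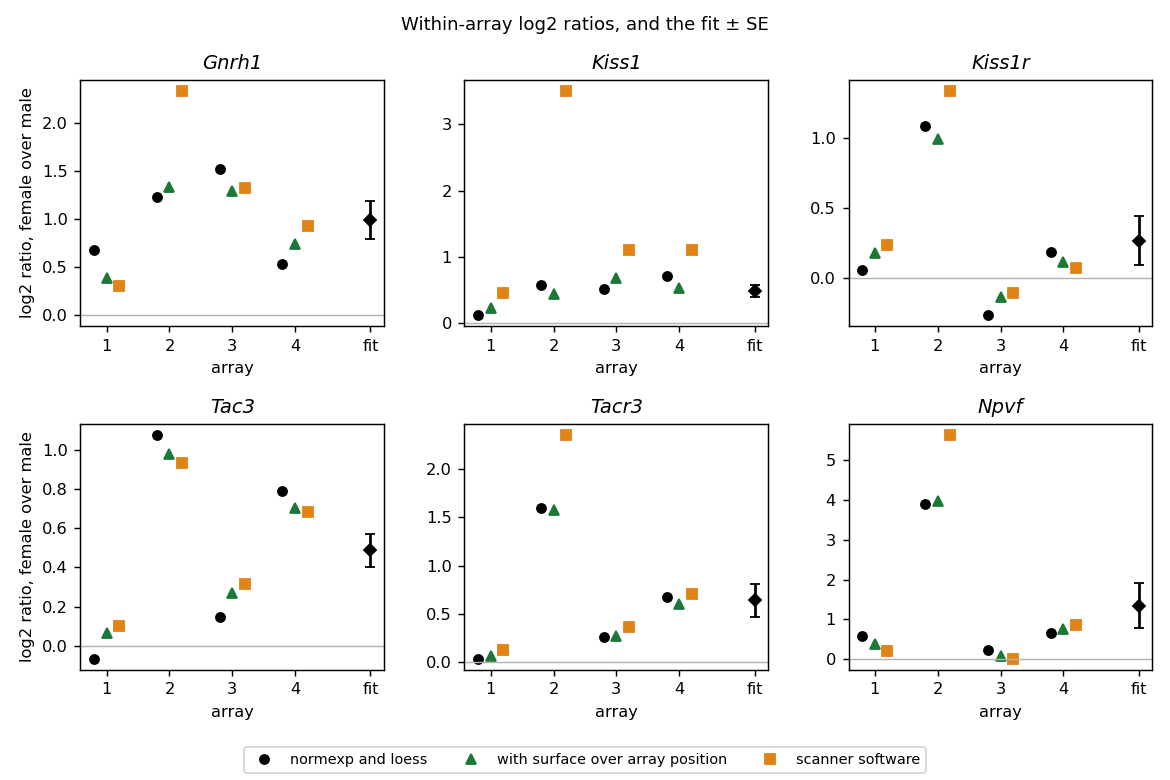
Log2 ratio of female over male on each array for the 6 genes, after intensity loess (black circles), with a surface over array position (green triangles) and from the scanner software (orange squares), with the fit ± SE at the right. Array 2, which held male 2, gives the highest loess ratio for Kiss1r, Tac3, Tacr3 and Npvf, reaching 3.90 for Npvf.

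Leaving out 1 array at a time kept all 6 fitted ratios above 0. Each such fit has a dye orientation held by a single array, which the sex and dye terms fit exactly. The residual spread of a gene is then only the gap between the arrays of the other orientation. Without array 4, array 2 with male 2 is fitted exactly and adds nothing to that spread. Without array 2 they were 0.81 for Gnrh1, 0.51 for Kiss1, 0.42 for Tac3, 0.41 for Tacr3, 0.53 for Npvf and 0.04 for Kiss1r, and none passed the threshold (adjusted p 0.598, and 0.919 for Kiss1r). Without array 4, 3 genes passed: Tac3 at 0.56 (limma, adjusted p = 0.0459), Tacr3 at 0.87 (adjusted p = 0.0316) and Npvf at 2.16 (adjusted p = 0.0308). In that fit of 3 arrays 6.8% of all probes passed (1486 of 21854), and male 2 stayed among its 3 males. Gnrh1, Kiss1 and Kiss1r did not pass in it, at adjusted p of 0.0546, 0.0892 and 0.0667, and Kiss1r was at 0.49.

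**Figure D5:**
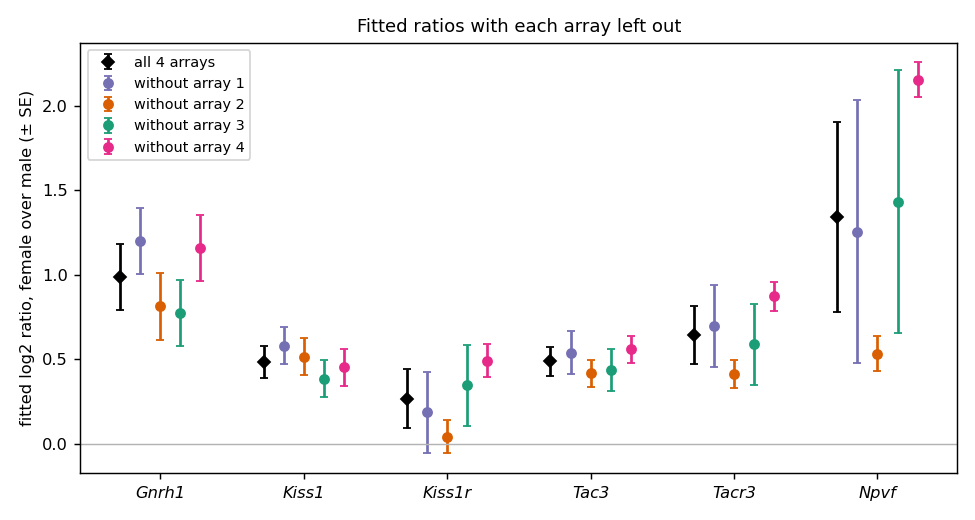
Fitted log2 ratio of female over male ± SE for each gene from all 4 arrays (black) and with each array left out (colours). Without array 2 Npvf moves from 1.34 to 0.53 and Kiss1r from 0.27 to 0.04, while Kiss1 and Tac3 stay between 0.38 and 0.58.

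The wider pathway was read from 82 genes, of which 76 are on the array by name and 66 were bright enough to test. Of these, 40 had a ratio above 0 and 26 below, with a median of 0.03, against a median of 0.02 and 56.2% above 0 over all 14603 genes. None passed the adjusted threshold (0 of 66, lowest adjusted p 0.555 by limma), and at an unadjusted p under 0.05 there were 2 higher in females and 4 higher in males, against 5.01% and 3.51% of all genes. Without array 2, 30 lay above 0 and 35 below, with a median of -0.0066, against 57.9% above 0 over all genes. Among receptors and co-transmitters of kisspeptin neurons, 4 of 5 lay above 0. Oprk1, the dynorphin receptor, stood at 0.49 ± 0.18 (unadjusted p = 0.0474, limma), with array values of 1.00, 0.42, 1.10 and -0.55; it was 0.25 without array 2, 0.30 as the mean of its probes and 0.78 with the scanner's log ratio. Tac1, which encodes substance P, stood at 0.73 ± 0.41 and its receptor Tacr1 at 0.30 ± 0.12, and without array 2 they were at 0.14 and 0.18. Without array 4 Tac1 was at 1.32 (adjusted p = 0.0308, limma) and Oprk1 at 0.73 (adjusted p = 0.0317). The GnRH receptor gene Gnrhr, the RFamide receptor genes Npffr1 and Npffr2 and the estrogen receptor genes Esr1 and Esr2 did not pass the filter on dim probes and were not tested.

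Of 10 tested genes of GnRH neuron development 7 lay below 0, and 8 without array 2. Chd7, a chromatin remodeller mutated in CHARGE syndrome, ranked first of them by p, at -0.23 ± 0.07 (unadjusted p = 0.0333, limma). It was at -0.39 without background correction, -0.51 with the scanner's log ratio and -0.65 from the authors' deposited table. Of 11 transcription factors of the Gnrh1 promoter 6 lay above 0 and 5 below, or 4 and 7 without array 2. Lhx2 was at -1.06 ± 0.29 (unadjusted p = 0.0192, limma) and below 0 on every array, at -0.36, -2.01, -1.22 and -0.62. Without array 2 it was at -0.71, and -0.69 with the surface as well, and without array 4 it passed at -1.40 (adjusted p = 0.0443, limma). Of 10 puberty genes 9 lay above 0, against 56.2% of all genes, with a median of only 0.06. Without array 2, 9 of 10 again lay above 0, with a median of 0.08. The Polycomb gene Cbx7 was at 0.25 ± 0.07 (unadjusted p = 0.02, limma). The hypothalamic transcription factor gene Nkx2-1 was at 0.58 ± 0.40, of which array 2 alone gave 2.43. Without array 2 Nkx2-1 was at 0.007, and without array 4 at 1.15 (adjusted p = 0.0308, limma). Among 16 other modulators, 10 lay above 0 and 6 below, or 8 and 8 without array 2. Egfr, the epidermal growth factor receptor, was at -0.19 ± 0.06 (unadjusted p = 0.0424, limma), and at -0.43 from the authors' deposited table. The 8 processing genes split 5 above and 3 below, and 1 above and 6 below among the 7 that could be fitted without array 2. The prohormone convertase gene Pcsk2 was at -0.47 ± 0.20, with -1.52 on array 2. It was at -0.21 without array 2 and passed without array 4 at -0.74 (adjusted p = 0.0407, limma). The 6 tested steroid and metabolic sensors split 3 and 3, or 2 above and 4 below without array 2. The leptin receptor gene Lepr was at -0.05 ± 0.06, and at -0.03 without array 2.

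The 3 genes whose dye-centred levels were most like each member over the 8 samples were found among 14488 genes, by Pearson r and with no test, since they are the top of a ranking and the samples share arrays and male 2. For Gnrh1 they were Fchsd2 (r = 0.99), Eva1c and Coq3. For Kiss1 they were Pkmyt1 (0.98), Klhl30 and Egf, and for Kiss1r Tspyl2 (0.999), Mgst1 and Tspan6. For Tac3 they were Srpk3 (0.99), Fam50a and LOC679859, for Tacr3 RGD1566314 (0.99), Zfp451 and Sco1, and for Npvf Il13ra1 (0.99), Npr2 and Spint2. Male 2 was the lowest sample for 18 of these 18 genes. They were chosen for likeness to members that are all lowest in male 2, so this adds no support. Without male 2, re-centred by dye, r was 0.96 for Fchsd2 and Gnrh1, 0.97 for Srpk3 and Tac3, and 0.86 for Il13ra1 and Npvf.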

How the data were processed

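Total RNA of 8 hypothalami was amplified, labelled with Cy3 or Cy5 and hybridised to 4 Agilent arrays, per the labels. Per the submitters' processing notes, the scanner software was Agilent Feature Extraction 10.7.3.1. The deposited spot and local background signals are intensity values as scanned, per the file headers, and the scanner log ratio is a log10 value, Cy5 over Cy3, per the file headers. The authors' deposited value table holds log2 values, equal within 0.01 to the log2 of median signal minus local background less a constant per column. Probe positions are on rn4.

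Mean signals were corrected with normexp (offset 50) and normalized by within-array loess with limma 3.58.1 in R 4.3.3. Spots flagged as outliers were dropped, and a probe's remaining spots averaged. The filter on dim probes asked that more than 0.5 of a probe's spots be well above background in each sample of at least 1 sex, which kept 22004, of which 21995 could be fitted. Ratios were fitted with sex and dye terms (residual df 2 with all arrays), p-values adjusted by Benjamini-Hochberg, and the steps tested on simulated data. The array, shared by the female and male of the same number, is the pairing. Levels use separate channels after Aquantile, and a gene other than the members is read by its brightest probe. The small number of arrays limits precision. Replicates are separate samples in the labels, and no label says more of how tissue was pooled, so p-values measure the spread between these samples. With 1 array left out, they measure only the gap between the arrays that still share a dye orientation.

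The members and gene lists were chosen with earlier results of these data known. Named genes are the members, up to 3 genes per pathway list with the smallest unadjusted p, defining markers, and the 3 genes most like each member. Of the genes under this rule, 1 is not reported here. Figures used matplotlib 3.10.9. Columns of other samples numbered 0.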

Additional observations from a re-analysis of the deposited data

Results flagged for a closer look

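The dye-centred log2 level of Npvf in male 2 was -3.10, far below the other 3 males, which lay between -0.07 and 0.43. The gap took 0.86 of the whole range of the 4 males, above Dixon's critical value for 4 samples. Chance gives such a gap in about 1 in 20 groups, and the 6 genes gave 12 groups of 4. The low hypothalamic markers of the same animal are given with the results.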

How the results depend on the processing

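All 6 fitted ratios stayed above 0 under the 17 alternatives tried for each. They ran from 0.77 to 1.22 for Gnrh1, 0.38 to 1.54 for Kiss1, 0.04 to 0.49 for Kiss1r, 0.42 to 0.56 for Tac3, 0.39 to 0.89 for Tacr3 and 0.50 to 2.16 for Npvf. Leaving out each replicate in turn gave 0.42 to 0.56 for Tac3, 0.41 to 0.87 for Tacr3 and 0.53 to 2.16 for Npvf, and these 3 passed the threshold without replicate 4. The number of probes past it went from 0 to 1486 and of pathway genes from 0 to 14 in these fits, and both were 0 under every other alternative; probes at an unadjusted p under 0.05 numbered 428 to 6481 (limma). The cause was not tested. Without replicate 4, array 2 alone held the Cy5 female, so the residual spread was only the gap between arrays 1 and 3. Without the array as the block (separate channels, no replicate block) the ratios were the same and Gnrh1 had an SE of 0.41 in place of 0.20; this changed no call. Among pathway genes, 4 of 359 values reversed in sign. Lepr was 0.0235 with median centring and 0.14 with the scanner's log ratio. Gper1 was -0.0258 without replicate 1 and -0.0104 without replicate 4, against 0.03 with all arrays. It was 0.07 without replicate 2, and 0.0867 was its highest value without 1 replicate. What caused these reversals was not tested. The surface over array position and its use without array 2 were chosen after seeing the data. The Kiss1 values are limited by a signal close to background.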
